A study of Mus musculus with 20 samples.

Results

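Oligodendrocyte precursor nuclei made up 1795 of the 160777 nuclei in single-nucleus RNA-seq libraries of the hippocampus from 20 mice. They were chosen from their own transcripts. A member held at least 3 UMIs (unique molecular identifiers, each standing for 1 captured transcript) of Pdgfra, Cspg4, Vcan and Neu4 together, with at least 1 from Pdgfra or Cspg4. It held at most 2 UMIs of the committed precursor genes Enpp6, Bmp4 and Gpr17, at most 1 of the mature oligodendrocyte genes Mog, Mag and Aspa, at most 1 of the neuronal genes Gad1, Gad2, Prox1 and Fibcd1, and none of Csf1r, Aqp4, Flt1 and Col1a2. The marker sum was met by 2645 nuclei. The need for Pdgfra or Cspg4 removed 504 of these, the limits on committed, mature and neuronal genes removed 19, 76 and 75, and the last condition removed 176.

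Oligodendrocyte precursors are the glial progenitors that persist in the adult brain, keep a low rate of division, and give rise to myelinating oligodendrocytes. They are defined by the PDGF receptor alpha and the proteoglycan NG2 (encoded by Cspg4), and they carry glutamate receptors and ion channels and receive synapses from neurons. On the way to myelination they pass through a committed state marked by Gpr17 and Enpp6, after which the myelin genes are switched on and the precursor genes are lost.

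The mice were males of 4.5 to 5.5 months, either wild-type (WT) or APP/PS1 (fAD), a line whose transgenes carry familial Alzheimer's disease mutations and are driven by the mouse prion promoter. Their state was awake, general anesthesia (GA, isoflurane started at 5% and held at 1.5% for 3 h) or ketamine-xylazine (150 mg/kg and 12 mg/kg, also 3 h). Of the WT mice 6 were awake, 3 under GA and 2 under ketamine, and of the fAD mice 3 were awake, 4 under GA and 2 under ketamine, with 1 library from each mouse. These sizes come from the labels. For its CA1 neuron comparison the study counts 3 mice for fAD-GA and 4 for every other group in these 2 states. The labels thus hold fewer fAD-Awake and WT-GA mice, and more fAD-GA mice, than the study counts. The reason was not tested, nor was the label of state checked. The study's methods state that tissue was processed in batches drawn from the awake and GA groups of both genotypes, but not which mice formed a batch. The labels give no batch, and the 4 ketamine mice (numbers 25 to 28) shared their run of consecutive numbers with only 1 other mouse, WT-Awake mouse 29, so that state and run cannot be told apart for ketamine.

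Several libraries stood apart. The mitochondrial share of UMIs was 0.939 to 1.78% for mice 1 to 4, and it was 0.0353 to 0.336% for the remaining 16. The prion gene Prnp, which shares its promoter with the transgenes, went against the genotype label in 4 libraries: over all nuclei it stood at 196 CPM (counts scaled to a common library total) in WT-Awake mouse 14, at 63.6 in fAD-GA mouse 11, at 74.5 in fAD-Awake mouse 17 and at 99.7 in fAD-GA mouse 20. In the remaining mice labelled WT it ranged from 42.2 to 149 (n = 10) and in those labelled fAD from 186 to 433 (n = 6). Genotype is therefore the genotype labelled. The share of nuclei and the fAD minus WT comparison are given with and without these 4 mice, a choice made after the values were seen. The interaction of genotype and GA is given with them. App, the mouse gene that corresponds to the APP transgene, ran from 409 to 623 CPM over all nuclei and did not part the labels. No barcode belonged to members of more than 1 library, while 3251 of 157472 barcodes occurred in more than 1 library. Whether a member's barcode occurred among the other nuclei of another library was not counted.

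The members' profile was that of precursors for most nuclei. Each nucleus was compared with 12 cell class profiles over all genes, started from nuclei with clear markers, so that the comparison is not independent of the rule. It gave 1647 of the 1795 members (91.8%) the precursor profile, and the other 148 (8.25%) were nearest to another class. It also found 3010 nuclei of precursor profile outside the rule, which were shallower (median 925 UMIs, against 1371 UMIs and 936 genes in the members). Depth per member ran from 502 to 16329 UMIs. At the edge of the rule, 589 members had a marker sum of exactly 3, of which 523 had the precursor profile, and 686 nuclei stood just outside at a sum of 2, of which 544 had it.

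The 4 genes that chose the members are given as a description. All other nuclei, here and below, include the 3010 of precursor profile outside the rule. Pdgfra was detected in 81.1% of members at 870 CPM (631 CPM in the nuclei just outside, 6.74 in all other nuclei), and Cspg4 in 61.1% at 534 CPM (396 and 5.66). Vcan, the matrix proteoglycan versican, was detected in 86.9% at 1249 CPM (404 and 22.6), and the sialidase gene Neu4 in 28.1% at 204 CPM (62.1 and 2.28). Pdgfra and Cspg4 were detected together in 758 members (42.2%) and all 4 genes in 146 (8.13%). Each of the 4 was higher in members than in the remaining nuclei of the same mouse in 20 of 20 mice, as the rule required. The mature gene Mog stood at 10.3 CPM in members against 1227 CPM in the 8018 mature oligodendrocytes.

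Precursor genes that the rule did not use were found in the same nuclei. The tetraspan gene Lhfpl3 was detected in 97.2% of members (5185 CPM, against 139 in all other nuclei), tenascin-R (Tnr) in 96.5%, the phosphatase Ptprz1 in 91.7%, the xylosyltransferase Xylt1 in 89.7% and Sox6, a transcription factor that holds precursors undifferentiated, in 79.9%. The lineage-determining factors were less often detected in these shallow nuclei. Sox10 was seen in 28.2% of members (235 CPM), Olig1 in 15.9% (107 CPM) and Olig2 in 12.2% (80.4 CPM). Tnr (8470 CPM, against 3594 in members), Sox6 (1992 against 1331) and Sox10 (310.1 against 235) were higher in nuclei with at least 3 UMIs of the committed genes, and Lhfpl3 was lower there (1109 CPM). Megf11, Cacng4, Matn4 and C1ql1 were detected in 59.9, 52.2, 30.4 and 17.8% of members.

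Among genes of at least 50 CPM outside the rule, those with the highest ratio to all other nuclei were Susd5 (110 CPM against 1.74), 6030407O03Rik, Gm42948 (283 against 5.78), Gucy2f, Cacng4 (513 against 10.9), A930009A15Rik, Shc4, C1ql1, Lhfpl3 and Sema3d (368 against 10.7). Next in order came Stk32a, Car8, Emid1 (289 against 9.03), Matn4, Itga9 (305 against 10.6), Kcnh8 (321 against 11.4), C430049B03Rik, Scel, Afap1l2 and 6330576A10Rik. Of these 20 genes, Susd5 (123 CPM), A930009A15Rik (166, against 82.1 in members) and Afap1l2 (238, against 199.6) were higher in committed nuclei, those with at least 3 UMIs of Enpp6, Bmp4 and Gpr17, than in members. The named proteins of this group span a semaphorin (Sema3d), an AMPA receptor regulatory subunit (Cacng4), an integrin (Itga9), a voltage-gated potassium channel (Kcnh8) and an adaptor of receptor tyrosine kinases (Shc4). In the nuclei of precursor profile outside the rule, which count among all other nuclei, Susd5 stood at 94.3 CPM, Gm42948 at 300 and Cacng4 at 525. The comparison of members with the rest is the one the rule made, and no test is attached to it.

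**Figure D1:**
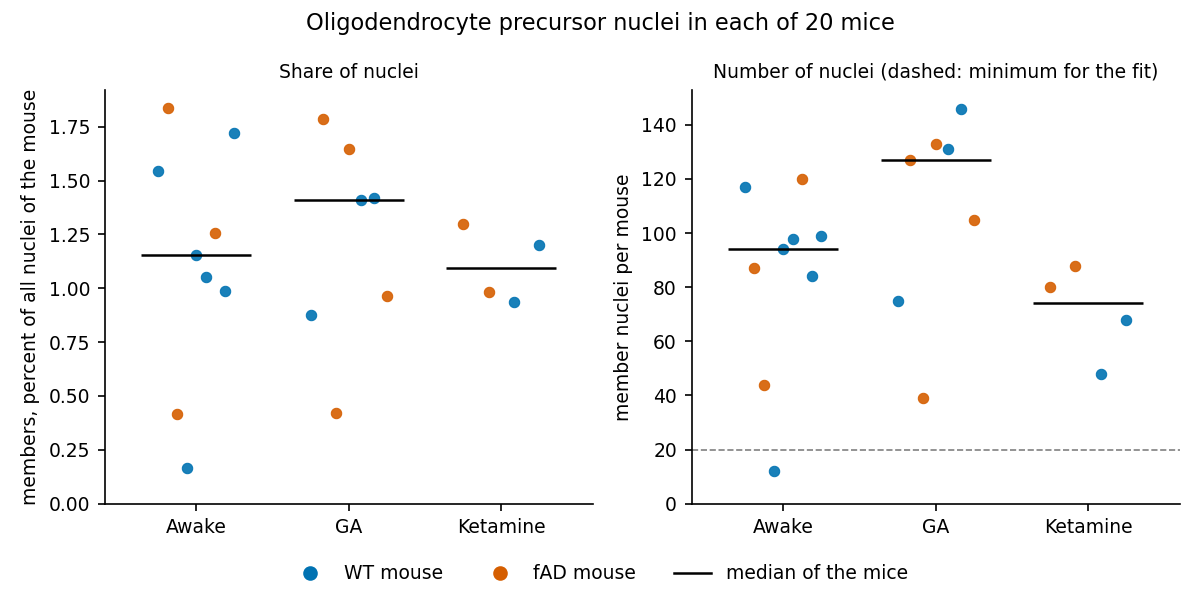
Oligodendrocyte precursor nuclei as a percent of all nuclei of each mouse (left) and as a number of nuclei (right), by state; each point is 1 mouse (blue labelled WT, orange labelled fAD), the line is the median of the mice and the dashed line is the 20 nuclei a mouse needed to enter the fits. The 3 lowest mice (0.165, 0.416 and 0.422%) lie in the awake and GA states, and the states overlap.

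The share of precursor nuclei overlapped between the states and between the genotype labels. The share was 1.13% ± 0.559 (SD, n = 9) in awake mice, 1.22% ± 0.482 (n = 7) under GA and 1.10% ± 0.173 (n = 4) under ketamine, and it ranged from 0.165% in WT-Awake mouse 12 to 1.83% in fAD-Awake mouse 2. By label it was 1.13% ± 0.418 (n = 11) in WT and 1.18% ± 0.533 (n = 9) in fAD. The 4 differences were 0.0923 percentage points for GA minus Awake, -0.0212 for Ketamine minus Awake, -0.113 for Ketamine minus GA and 0.0457 for fAD minus WT. None passed a two-sided exact permutation test (p = 0.733, 0.937, 0.630 and 0.835, adjusted p = 0.937 for each). The rule counts UMIs, so that the share depends on depth. Among the 116312 nuclei of at least 1000 UMIs, each thinned to 1000, it was 0.681% ± 0.392 in awake mice, 0.697% ± 0.322 under GA and 0.896% ± 0.408 under ketamine, and the ketamine differences changed sign. In a nuclei preparation fewer cells of a type and less RNA per nucleus cannot be told apart. Without the 4 mice whose Prnp level went against the label the differences were 0.310, -0.0128, -0.323 and 0.186 percentage points, none past the test.

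A small group of members expressed the genes of cell division. At least 5 of 30 cell cycle genes were detected in 35 of 1795 members (1.95%, exact 95% interval 1.36 to 2.70%), spread over 13 mice with at most 6 in a mouse. Among these 35 nuclei, the topoisomerase Top2a was detected in 32, the kinesin Kif23 in 24, the kinetochore genes Cenpf and Cenpe in 23 and 22, the proliferation marker Mki67 in 21, the kinesin Kif11 in 18 and the kinase Cdk1 in 14. They numbered 15 of 755 members in awake mice, 15 of 756 under GA and 5 of 284 under ketamine. The intervals cover counting error only. The same count was met by 7 of 8018 mature oligodendrocytes (0.0873%, 0.0351 to 0.180%) and 2 of 823 astrocytes (0.243%).

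Depth bears on such counts, since the median was 1371 UMIs in members, 931 in mature oligodendrocytes and 1540 in astrocytes. With each nucleus thinned to 1000 UMIs, at least 3 cell cycle genes were detected in 36 of 1320 members (2.73%, exact 95% interval 1.92 to 3.76%), in 6 of 3523 mature oligodendrocytes (0.170%, 0.0625 to 0.370%) and in 0 of 649 astrocytes, which allows a share of up to 0.567%. The committed genes were rare in members under the limit of 2 that the rule set: 1560 members had no UMI of Enpp6, Bmp4 or Gpr17, 211 had 1 and 24 had 2.

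Isoflurane anesthesia was compared with the awake state over both genotypes, on UMIs summed per mouse. WT-Awake mouse 12, with 12 members, was left out of every fit, which leaves 8 awake, 7 GA and 4 ketamine mice and 1783 members. Of 5048 genes tested, 26 rose and 14 fell (edgeR, adjusted p under 0.05), which is 0.792% of genes tested, with 0.515% higher and 0.277% lower. DESeq2 called 47 of the same genes, 20 of them among the 40, with the balance turned (21 higher and 26 lower), and gave each of the 40 the same direction. Values in the comparisons are CPM over the UMIs of the tested genes (83.0 to 87.9% of a mouse's member UMIs) after TMM scaling. They run higher than the member levels and marker sums, which are CPM over all UMIs of the members. Fold changes are on the log2 scale with their standard errors. The number of calls rested on single mice: it was 11 without fAD-Awake mouse 2 or fAD-GA mouse 4, 14 without WT-GA mouse 18, 23 without WT-GA mouse 16 and 61 without fAD-Awake mouse 17. The direction of each of the 40 genes was the same in each of these fits. Without the 4 mice of mismatched Prnp 48 genes were called, 27 of them among the 40. With each run of consecutive mouse numbers as a block 30 genes were called, 25 of them among the 40, and Lhfpl3, Neto2 and Tgfa were among those no longer called.

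The largest changes were in a pair of genes of the hypoxia response. Vegfa (chr17:46016993-46032369, GRCm38), the vascular growth factor induced by hypoxia-inducible factors, stood at 50.8 to 203 CPM in awake mice (median 71.2) and at 0 to 56.2 under GA (median 16.3). WT-GA mice 3 and 16 had no Vegfa UMI, and only the highest GA mouse reached the awake range. Vegfa fell by 2.79 ± 0.397 on the log2 scale (edgeR adjusted p = 0.000311). Hif3a (chr7:17031507-17062427), whose product is a hypoxia-inducible factor subunit that can restrain the others, moved the other way, from 0 to 23.6 CPM in awake mice (median 13.8) to 0 to 333 under GA (median 132). It was at 0 in fAD-GA mouse 11 and above the awake range in the other GA mice, and it rose by 3.42 ± 0.494 (edgeR adjusted p = 0.000311). The other 9 tested genes of the list on metabolism and hypoxia were not called, and over all genes 0.792% were called. The median of the 11 listed genes was -0.01 against 0.00 over all genes.

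Adamts6 (chr13:104287835-104496695), a secreted metalloprotease, stood at 149 to 254 CPM in awake mice (median 183) and at 233 to 584 under GA (median 509.6), and it rose by 1.36 ± 0.182 (edgeR adjusted p = 0.000256). Chst2, a sulfotransferase of glycan chains, had awake values of 39.3 to 79.3 CPM (median 55.3) and GA values of 43.4 to 192 (median 147), a rise of 1.25 ± 0.257 (edgeR adjusted p = 0.0152). WT-GA mouse 3 and fAD-GA mouse 11 were within the awake range. Chst2 was the 1 gene called of 21 tested matrix proteoglycan genes, against 0.792% of all genes called. The median of the 21 was 0.05.

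Kazn (chr4:142102390-142239401), which encodes the junctional protein kazrin, did not overlap between the states: awake mice ran from 67.5 to 113 CPM (median 85.4) and GA mice from 163 to 264 (median 235). It rose by 1.31 ± 0.195 (edgeR adjusted p = 0.000344). Adarb2 (chr13:8202866-8768747), a catalytically inactive member of the RNA-editing deaminases, rose by 0.93 ± 0.162 (edgeR adjusted p = 0.00342), from 1433 to 2399 CPM (median 2013) to 1886 to 4916 (median 3765). Tafa1, a secreted neurokine-like protein, rose by 0.89 ± 0.166 (edgeR adjusted p = 0.00679), with a median of 613 CPM awake and 1456 under GA. WT-GA mouse 3 had 488 CPM of Tafa1, below every awake mouse.

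**Figure D2:**
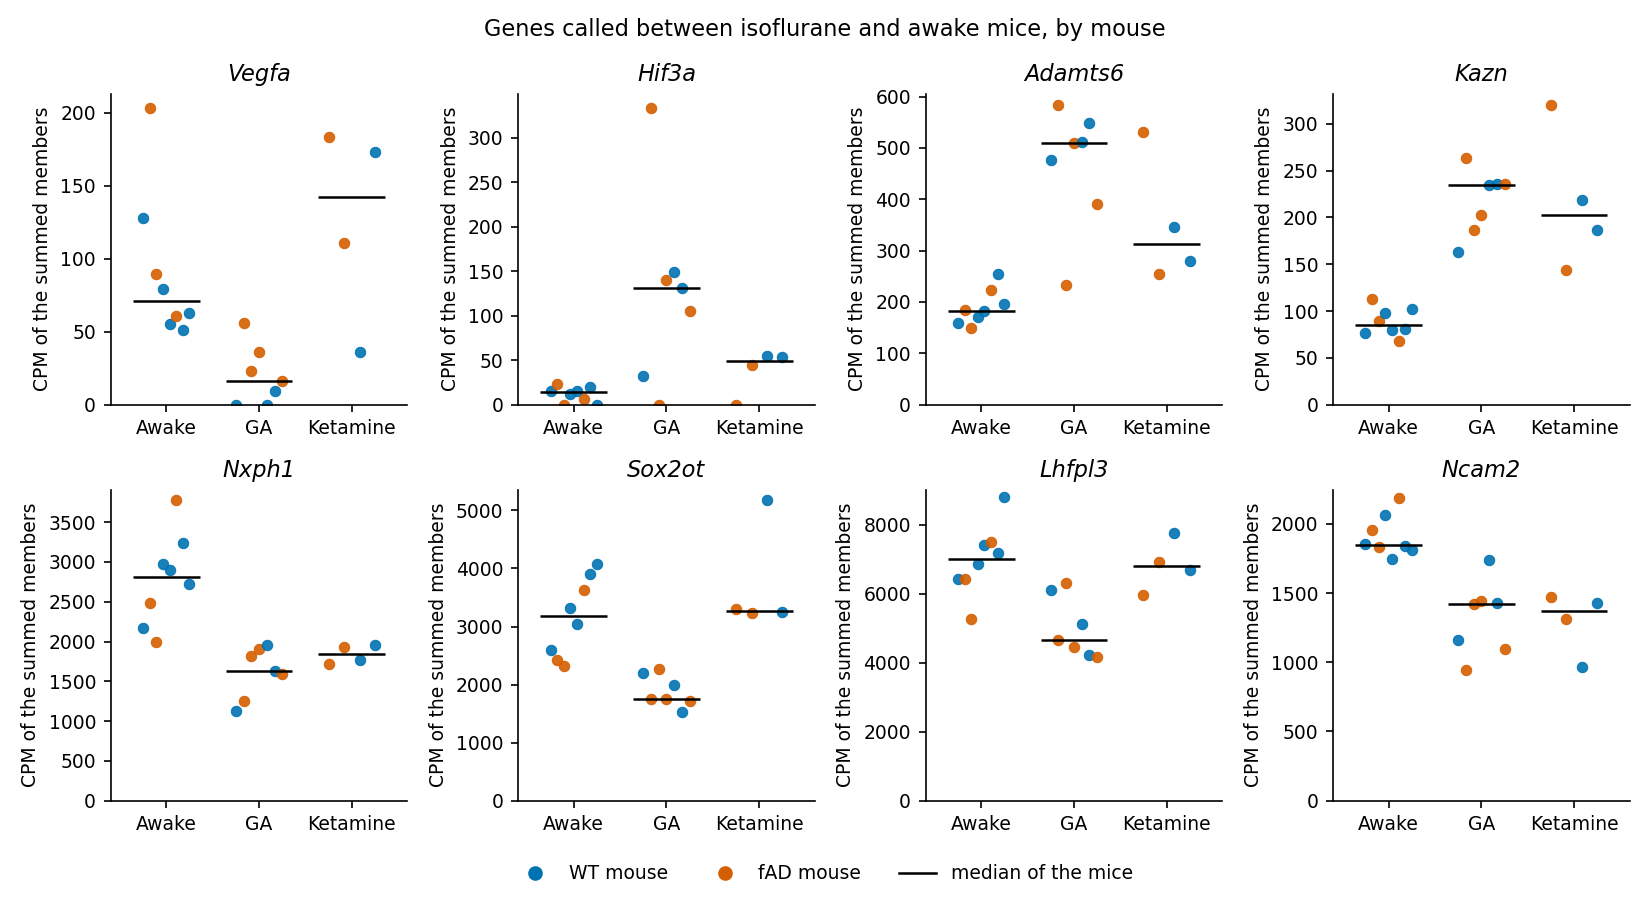
CPM of 8 genes in summed precursor nuclei by mouse and state (8 awake, 7 GA and 4 ketamine mice; the line is the median of the mice, blue points are labelled WT and orange points fAD). Kazn, Nxph1, Sox2ot and Ncam2 do not overlap between awake and GA mice, while for Vegfa, Hif3a, Adamts6 and Lhfpl3 the ranges overlap.

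Several non-coding transcripts were among the 26 genes that rose, while the non-coding Sox2ot fell. Gm20646 did not overlap between the states (29.8 to 62.9 CPM awake, 70.0 to 195 under GA) and rose by 1.46 ± 0.259. Gm26512, 2900052L18Rik and 4930544I03Rik rose by 1.42, 1.95 and 1.61, with awake medians of 47.9, 19.4 and 31.6 CPM and GA medians of 138, 53.3 and 99.9. Gm26512 and 4930544I03Rik overlap on chromosome 12, so their reads may not be separate evidence. WT-Awake mouse 29 had 126 CPM of Gm26512, within the GA range.

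Among the genes that fell, Nxph1 (chr6:8948431-9249032), which encodes neurexophilin, a secreted ligand of neurexins, ran from 1999.7 to 3778 CPM in awake mice (median 2806) and from 1127 to 1952 under GA (median 1625). The ranges did not overlap, and Nxph1 fell by 0.80 ± 0.117 (edgeR adjusted p = 0.000311). The adhesion gene Ncam2 ran from 1744 to 2186 CPM awake (median 1848) and from 943 to 1738 under GA (median 1423), a fall without overlap of -0.55 ± 0.115 (edgeR adjusted p = 0.0173). It was the 1 call among 54 tested genes of adhesion and synapse, against 0.277% of all genes lower and 0.515% higher. The median of the 54 was -0.05. Ntn1, the guidance cue netrin-1, fell by 0.77 ± 0.169 (edgeR adjusted p = 0.0213), from a median of 254 CPM to 161.

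Sox2ot (chr3:34104270-34682619), the long non-coding transcript that spans Sox2, fell by 0.71 ± 0.13 (edgeR adjusted p = 0.00613), from 2328 to 4079 CPM awake (median 3188) to 1534 to 2263 under GA (median 1747) without overlap. Lrch3 and the kinase gene Lmtk2 also fell without overlap, by 0.81 and 0.87, from medians of 252 and 225 CPM to 155 and 119.6. Lhfpl3 (chr5:22746059-23275597), one of the most abundant precursor transcripts here, fell by 0.46 ± 0.109 (edgeR adjusted p = 0.0415), from 5268 to 8794 CPM (median 7022) to 4173 to 6299 (median 4647). Lhfpl3 was called in 10 of the 19 fits that left out 1 mouse, against 19 of 19 for Vegfa, Hif3a, Adamts6, Kazn, Adarb2, Kcnip1, Nxph1 and Sox2ot.

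Of 26 tested glutamate receptor genes, both kainate receptor auxiliary subunits fell and no other member was called, against 0.277% of all genes lower, with a list median of -0.11. Neto1 ran from 261 to 478 CPM awake (median 374) and from 184 to 373 under GA (median 203), a fall of -0.75 ± 0.158 (edgeR adjusted p = 0.0173). Neto2 ran from 102 to 222 CPM (median 136) and from 43.3 to 140.0 (median 75.9), a fall of -0.88 ± 0.208 (edgeR adjusted p = 0.0404), and it was called in 5 of the 19 fits that left out 1 mouse. The groups overlapped for both.

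Of 36 tested ion channel genes, a pair of Kv channel-interacting proteins was called, in opposite directions, against 0.792% of all genes called. Kcnip1 rose by 0.91 ± 0.173 (edgeR adjusted p = 0.00725), from 179 to 449.9 CPM (median 355) to 349.9 to 792 (median 756). Kcnip3, a calcium sensor also known as the repressor DREAM, fell by 0.78 ± 0.178 (edgeR adjusted p = 0.0309), from 501 to 956 CPM (median 645) to 296 to 723 (median 359).

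Precursor, differentiation and division genes as groups gave few calls under GA. Of 33 tested precursor genes outside the rule, Lhfpl3 was the call, against 0.792% of all genes called. Of the 33, 25 had a negative and 8 a positive estimate, and the median was -0.12. The 4 genes of the rule, which chose the nuclei, had positive estimates with a median of 0.18 and no call. None of 17 differentiation and myelin genes (median -0.19), 6 cell cycle genes, 15 growth factor genes (-0.16), 9 ERK output genes (-0.10), 3 immediate early genes or 13 Notch and Wnt genes (-0.15) was called. The members of smallest unadjusted p were Tcf7l2, the Wnt effector of committed precursors (log2 -0.78, edgeR adjusted p = 0.0837), the cyclin gene Ccnd1 (-0.95, adjusted p = 0.132), Fgf1 (0.89, adjusted p = 0.0889), the activity-regulated scaffold gene Homer1 (-1.03, adjusted p = 0.144) and Maml2 (-0.33, adjusted p = 0.18). Only 3 of 30 immediate early genes were high enough to test.

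Genes of body state were measured as well. No gene was called among 9 circadian genes (Clock, log2 -0.54, adjusted p = 0.17), 11 glucocorticoid targets (Mertk, 1.08, edgeR adjusted p = 0.0777) or 16 genes of the heat shock list (P4ha1, -0.59). P4ha1 itself is not a heat shock gene. None was called among 26 genes of cyclic nucleotide signalling (Sik2, -0.62, adjusted p = 0.116), 16 genes of GABA and other transmitter receptors (Adra1a, 0.63), 10 mitochondrially encoded genes (mt-Nd3, -0.71) or 4 reactive and interferon genes (Stat3, 0.66). Neuronal RNA was measured in the same sums: 12 excitatory neuron markers summed to 6760 to 14160 CPM in awake mice (median 7613) and 5125 to 11750 under GA (median 9599). None of the 10 of them tested was called. The 12 inhibitory neuron markers summed to 2640 to 2943 CPM in the awake mice of the fit (median 2803) and to 2772 to 4019 under GA (median 3565), with 5 of the 7 GA mice above every awake mouse. Most of that sum was Erbb4, a neuregulin receptor detected in 93.4% of members, which was not called (log2 0.34 ± 0.0983, edgeR adjusted p = 0.0973). Without Erbb4 the rest of the list overlapped, at 153 to 493 CPM awake (median 290) and 177 to 441 under GA (median 255). The part of either list in the results was not tested.

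Of the 40 called genes, 31 belonged to none of the lists. Further genes among them, chosen for naming after their values were seen, were the hexosamine pathway enzyme Gfpt2 (log2 1.46, medians 31.2 CPM awake and 108 under GA) and the retinal dehydrogenase Aldh1a1 (1.67, 18.0 and 62.4), which rose. The EGF receptor ligand Tgfa (-0.81, 181 and 99.5), the metalloprotease Adam12 (-0.62, 535 and 317) and the deacetylase Hdac9 (-0.77, 310 and 242) fell. The agrin receptor Lrp4 (0.98, 94.6 and 186), the calcineurin regulator Rcan2 (0.79, 124 and 208) and 6030407O03Rik (1.01, 160 and 286) rose. In 11 of the 40 the awake and GA ranges did not overlap, 5 higher and 6 lower under GA, against 18 of the 5048 genes tested (0.357%, with 0.198% higher and 0.158% lower). Those not yet given as such were Mipol1, Ino80dos, Gm4221 and Hdac9.

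The GA response was next set against that of mature oligodendrocytes and of astrocytes from the same mice. With mouse as a block, 34 of 7374 genes (0.461%) responded differently in precursors and mature oligodendrocytes in 19 mice, 9 with the higher (0.122%) and 25 with the lower response in precursors (0.339%). The count was 14 without fAD-GA mouse 4, 17 without WT-GA mouse 18, 20 without WT-Awake mouse 13 and 53 without fAD-Awake mouse 10. The differences below come from that joint fit, in which both classes are scaled together, while the log2 change given for each class comes from a fit of that class alone, so that the changes do not subtract exactly to the difference.

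Kazn and Tafa1 were called in precursors and differed between the classes. The log2 change of Kazn was 1.31 in precursors and 0.06 in mature oligodendrocytes, where it ran from 91.4 to 281 CPM awake and 177 to 259 under GA (difference 1.33 ± 0.223, edgeR adjusted p = 0.00107). That of Tafa1 was 0.89 in precursors and -0.84 in mature oligodendrocytes (difference 1.41 ± 0.235, adjusted p = 0.00107). Adarb2 also differed (0.93 and -0.39, difference 1.203 ± 0.293, edgeR adjusted p = 0.0449).

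Other genes differed between the classes through a larger change in mature oligodendrocytes. Rhoj, a small GTPase, ran in mature oligodendrocytes from 45.7 to 131 CPM awake (median 58.1) and from 141 to 603 under GA (median 309), without overlap. In precursors it ran from 22.9 to 103 CPM (median 54.8) and from 23.8 to 78.7 (median 58.2). The difference of the responses was -2.51 ± 0.386 (edgeR adjusted p = 0.000795). The Rac exchange factor Prex1 (difference -1.27 ± 0.212), the transcription factor Bach2 (-1.16 ± 0.206) and Shc4 (-2.07 ± 0.39) differed the same way. Ugt8a, the enzyme of galactocerebroside synthesis in myelin, had log2 changes of -1.12 in mature oligodendrocytes and -0.22 in precursors (difference 0.96 ± 0.227, edgeR adjusted p = 0.0338). Sox8, a lineage factor related to Sox10, had -0.79 and 0.42 (difference 1.23 ± 0.289, adjusted p = 0.0325).

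The hypoxia genes and Adamts6 were not called as different between precursors and mature oligodendrocytes. Hif3a rose in the mature class too (log2 2.22 ± 0.387, edgeR adjusted p = 0.00125; difference 1.26 ± 0.453, adjusted p = 0.273) and in astrocytes (1.49 ± 0.254, adjusted p = 0.00411). Adamts6 rose by 1.36 ± 0.251 in mature oligodendrocytes (adjusted p = 0.00211), a difference of 0.05 ± 0.293. Vegfa was low in mature oligodendrocytes (median 13.7 CPM awake and 11.7 under GA), where its log2 change was -0.39 ± 0.366, and the difference of -1.71 ± 0.528 missed the threshold (edgeR adjusted p = 0.168). In astrocytes Vegfa had a median of 69.6 CPM awake and 102 under GA.

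Against astrocytes, which could be tested in 15 mice (7 awake, 6 GA and 2 ketamine), 0 of 5750 genes were called in edgeR (0%), with 437 at an unadjusted p under 0.05 and 1 called by DESeq2. Counts without 1 mouse ran from 0 to 3, with 3 without WT-GA mouse 18. The genes of smallest unadjusted p with the lower response in precursors were Prune2 (difference -1.49, adjusted p = 0.068), Gm32647 (-4.81), Vegfa (-2.61 ± 0.569, edgeR adjusted p = 0.0793), Prkca (-1.15) and the glucocorticoid-induced chaperone Fkbp5 (-2.34, adjusted p = 0.0919). Those with the higher response were Tdrd3 (1.89), Aldh1a1 (1.61), Ubn2 (1.17), Lrp4 (1.27) and Cd46 (1.85).

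**Figure D3:**
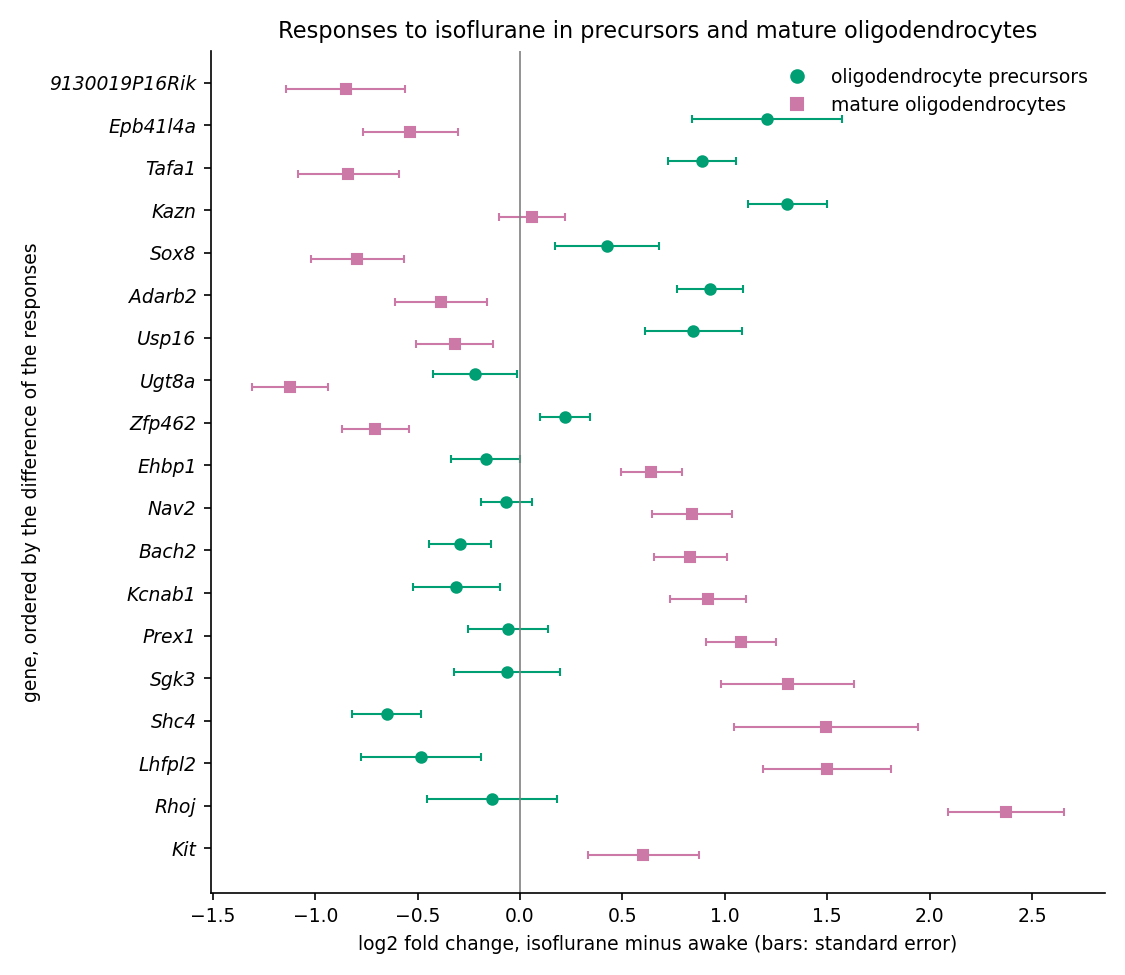
Log2 change under GA with its standard error in precursors and mature oligodendrocytes, for genes whose responses differ between the classes. Rhoj (-0.14 and 2.37) and Shc4 (-0.65 and 1.50) lie apart on one side, Kazn (1.31 and 0.06) and Tafa1 (0.89 and -0.84) on the other; 9130019P16Rik and Kit have no precursor point because they were not tested there.

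Ketamine-xylazine was compared with the awake state in the same fit, and shares its awake mice with the GA comparison. Of 5048 genes, 53 rose and 57 fell (2.18%, with 1.05% higher and 1.13% lower). With a block for each run of numbers, 5 genes were called, 1 of them among the 110. In that fit each ketamine difference, also the one from GA, rests on WT-Awake mouse 29, the only other mouse of the run. The count was 7 without WT-Ketamine mouse 27, 13 without fAD-Ketamine mouse 25, 47 without fAD-Ketamine mouse 26, 62 without WT-Ketamine mouse 28, 61 without fAD-Awake mouse 2, 66 without WT-Awake mouse 14 and 72 without WT-Awake mouse 13 or fAD-GA mouse 4. In 52 of the 110 the awake and ketamine ranges did not overlap, 29 higher and 23 lower, against 125 genes (2.48%, with 1.31% and 1.17%) of those tested. All 4 ketamine mice lay beyond mouse 29, the awake mouse of their run, in 74 of the 110, and mouse 29 lay within the ketamine range in 36. In 39, mouse 29 was itself beyond the other awake mice on the side of the ketamine mice. Over all 5048 genes, with sides taken from the sign of the estimate, these counts were 1500 (29.7%), 3196 (63.3%) and 911 (18.0%), against 67.3, 32.7 and 35.5% of the called genes, whose call already used these mice.

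Of 26 glutamate receptor genes tested under ketamine, 5 fell and none rose, against 1.13% of all genes lower, with 18 negative estimates and a median of -0.34, against -0.03 over all genes. When nuclei of mixed profile were left out, Grm5 and Grin3a were still called. Neto1 missed the threshold at a similar value (log2 -0.72, against -0.85), Gria1 missed it at a smaller one (-0.996, against -1.86), and Grin2a was too low to be tested. Grm5 (chr7:87584168-88134907), the group I metabotropic receptor, stood at 1265, 1143, 854 and 1093 CPM in ketamine mice 25 to 28 in order, against 1084 to 2104 in awake mice (median 1775). It fell by 0.82 ± 0.131 (edgeR adjusted p = 0.00108). Gria1, an AMPA receptor subunit, stood at 272, 399, 109 and 93.3 CPM, against 157 to 1433 awake (median 485), a fall of -1.86 ± 0.355 (edgeR adjusted p = 0.00906). Mouse 29 was the lowest awake mouse for Gria1, at 157 CPM.

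The NMDA receptor subunit Grin2a stood at 463, 555, 36.3 and 107 CPM in ketamine mice 25 to 28, against 244 to 1462 awake (median 465), and fell by 1.98 ± 0.403 (edgeR adjusted p = 0.013). Only the pair labelled WT lay below the awake range. Mouse 29 was the lowest awake mouse for Grin2a, at 244 CPM. Grin3a, the NMDA subunit that lowers calcium flow, stood at 238, 344, 345 and 453 CPM, each below the 478 to 706 of awake mice (median 541), and fell by 0.73 ± 0.193 (edgeR adjusted p = 0.0438). Neto1 stood at 204, 366, 218 and 160.0 CPM and fell by 0.85 ± 0.214 (edgeR adjusted p = 0.0342).

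Of 36 ion channel genes 3 fell and none rose, against 1.13% of all genes lower and 1.05% higher, with 28 negative estimates and a median of -0.41. Kcnip4 (chr5:48389502-49524907), a Kv channel-interacting protein, stood at 1469, 1498, 745 and 959.8 CPM against 946 to 4358 awake (median 2399) and fell by 1.46 ± 0.195 (edgeR adjusted p = 0.000116). WT-Awake mouse 1 was the awake mouse at 946 CPM, and all the others were above the ketamine mice. Kcnmb4, a subunit of calcium-activated potassium channels, stood at 27.2, 33.3, 0 and 40.0 CPM against a median of 101, and the two-pore potassium channel Kcnk10 at 143, 66.6, 109 and 107 against 149 to 285. They fell by 2.07 and 0.96 on the log2 scale (edgeR adjusted p = 0.0189 and 0.0498).

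These genes are also expressed by neurons, and the excitatory neuron signal in the sums was lower in ketamine than in awake mice. The 12 excitatory neuron markers summed to 3074 to 5598 CPM in the members of ketamine mice (median 5198), below the 6760 to 14160 of awake mice, and without Kcnip4 the other 11 summed to 2434 to 4771 against 4698 to 10488. All 10 tested had negative estimates (median -0.71), and Kcnip4, Celf2 and Syt1 fell, against 1.13% of all genes lower. Syt1, the calcium sensor of transmitter release, stood at 571, 466, 109 and 307 CPM against 386 to 1522 (median 710.0). Mixed nuclei, those best described with 30% or more of another class's profile, were 43.2% of the members of fAD-Awake mouse 10 (19 of 44), which had the highest awake sum, and 5.33 to 19.0% in the other mice. By state they made up 11.3 to 14.6% in ketamine mice (median 12.7%) and 6.90 to 43.2% in awake mice (median 9.17%). Of all 226 mixed nuclei (12.6% of members), 145 were mixed with the profile of a neuron class. The mixed share was scored over all genes but the mitochondrial ones, so the receptor and channel genes took part in choosing these nuclei. Results without mixed nuclei, here and in the other comparisons, are therefore not independent of that choice. When the 226 were left out, 61 genes were called, and the receptor and channel genes parted. The falls of Kcnip4 (log2 -0.25, edgeR adjusted p = 0.755), Syt1 (-0.52, adjusted p = 0.614) and Gria1 (-0.996, adjusted p = 0.192) were no longer called and were smaller by more than 1.5 times, and Grin2a was then too low to be tested. Neto1 (edgeR adjusted p = 0.112) and Kcnk10 (-0.94, adjusted p = 0.0755) also missed the threshold, at similar values. Grm5 (-0.58, edgeR adjusted p = 0.048), Grin3a (-0.89, adjusted p = 0.0206) and Kcnmb4 (-2.29, adjusted p = 0.0206) were still called. So were genes outside the receptor and channel lists, Celf2 (-0.72), Nrcam (-1.09), C1ql1 (-1.93) and Nxph1 (-0.85). The part of neuronal RNA in these falls was not tested.

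**Figure D4:**
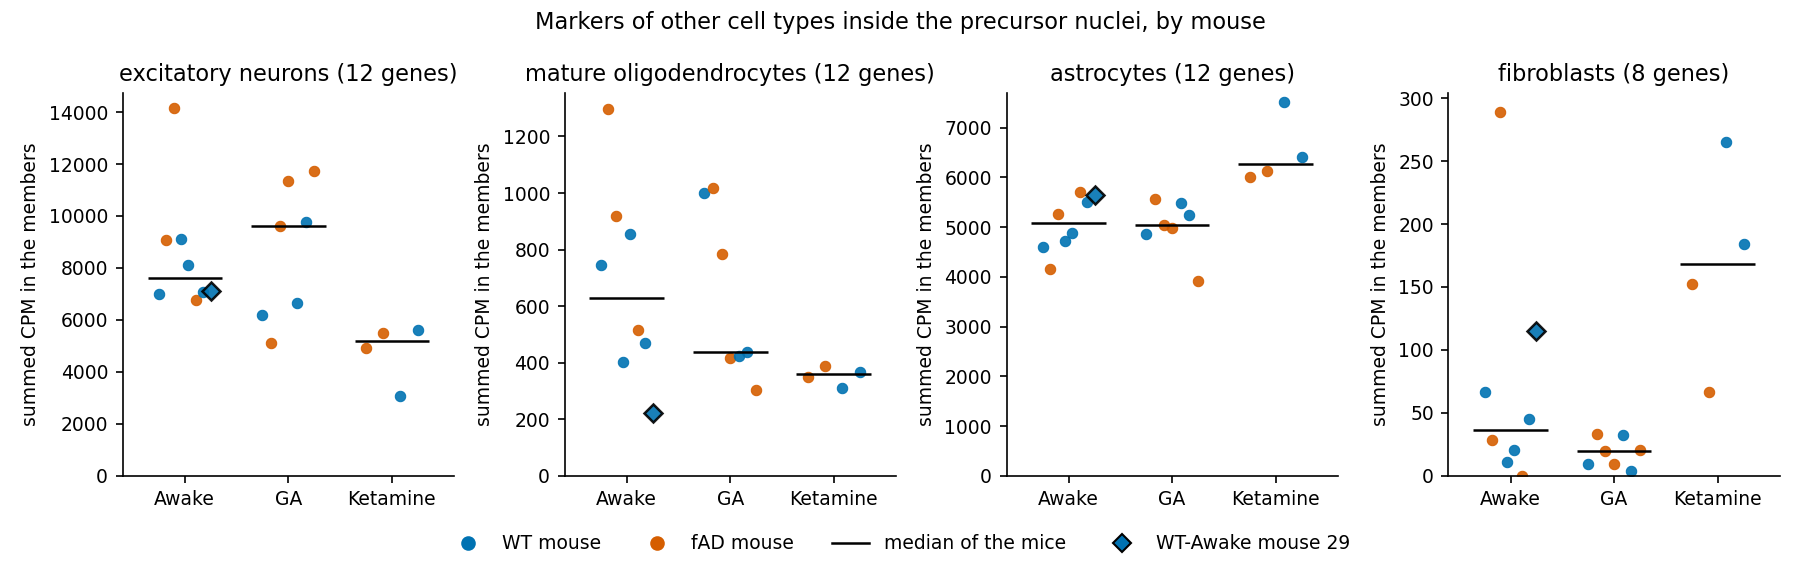
Summed CPM of marker lists of other cell types within precursor nuclei, by mouse (8 awake, 7 GA and 4 ketamine mice; the diamond is WT-Awake mouse 29): 12 excitatory neuron genes, 12 mature oligodendrocyte genes, 12 astrocyte genes and 8 fibroblast genes. In ketamine mice the excitatory sum (3074 to 5598) lies below and the astrocyte sum (6004 to 7505), most of which is Gpc5, above the awake range; without Gpc5 the astrocyte sum overlaps.

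Adhesion genes gave 3 calls of 54, all falls, against 1.13% of all genes lower, with a median of -0.08. Nrcam (chr12:44328885-44601964), an L1-family adhesion molecule, stood at 388, 399, 399.8 and 519.9 CPM, each below the 610.0 to 1048 of awake mice (median 811), and fell by 1.03 ± 0.217 (edgeR adjusted p = 0.0134). Ncam2 fell by 0.64 ± 0.145 and Negr1 by 0.64 ± 0.153. C1ql1 (chr11:102939264-102946688), a secreted C1q-like protein typical of precursors, stood at 34.0, 55.5, 36.3 and 40.0 CPM against 74.6 to 217 awake (median 158), and fell by 1.84 ± 0.377 (edgeR adjusted p = 0.013). It was the 1 call of 33 precursor genes outside the rule, whose median was -0.09. Nxph1 stood at 1721, 1930.1, 1763 and 1959.7 CPM, each below the lowest awake mouse, and fell by 0.71 ± 0.146 (edgeR adjusted p = 0.013).

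Other genes that fell were the lipid phosphatase-related Plppr1, the splicing regulator Tra2a and the transcription factor Hivep2. Plppr1 stood at 129, 177, 218 and 240.0 CPM against 257 to 425 awake, a fall of -0.99 ± 0.209. Tra2a stood at 184, 133, 327 and 387 CPM against a median of 487, and Hivep2 at 313, 311, 254 and 307 against 432 to 836. Mouse 29 was the lowest awake mouse for Hivep2. Of 10 tested mitochondrially encoded genes 4 fell, against 1.13% of all genes, namely mt-Nd4 (log2 -2.53), mt-Cytb (-2.94), mt-Co1 (-2.01) and mt-Atp6 (-1.93). Their levels differed between libraries: mt-Nd4 was 20.4, 66.6, 18.2 and 26.7 CPM in ketamine mice, 62.9 in awake mouse 29 and up to 1155 in awake mice, with mice 1 and 2 the highest. With a block for each run the sign of mt-Atp6 changed (0.17).

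**Figure D5:**
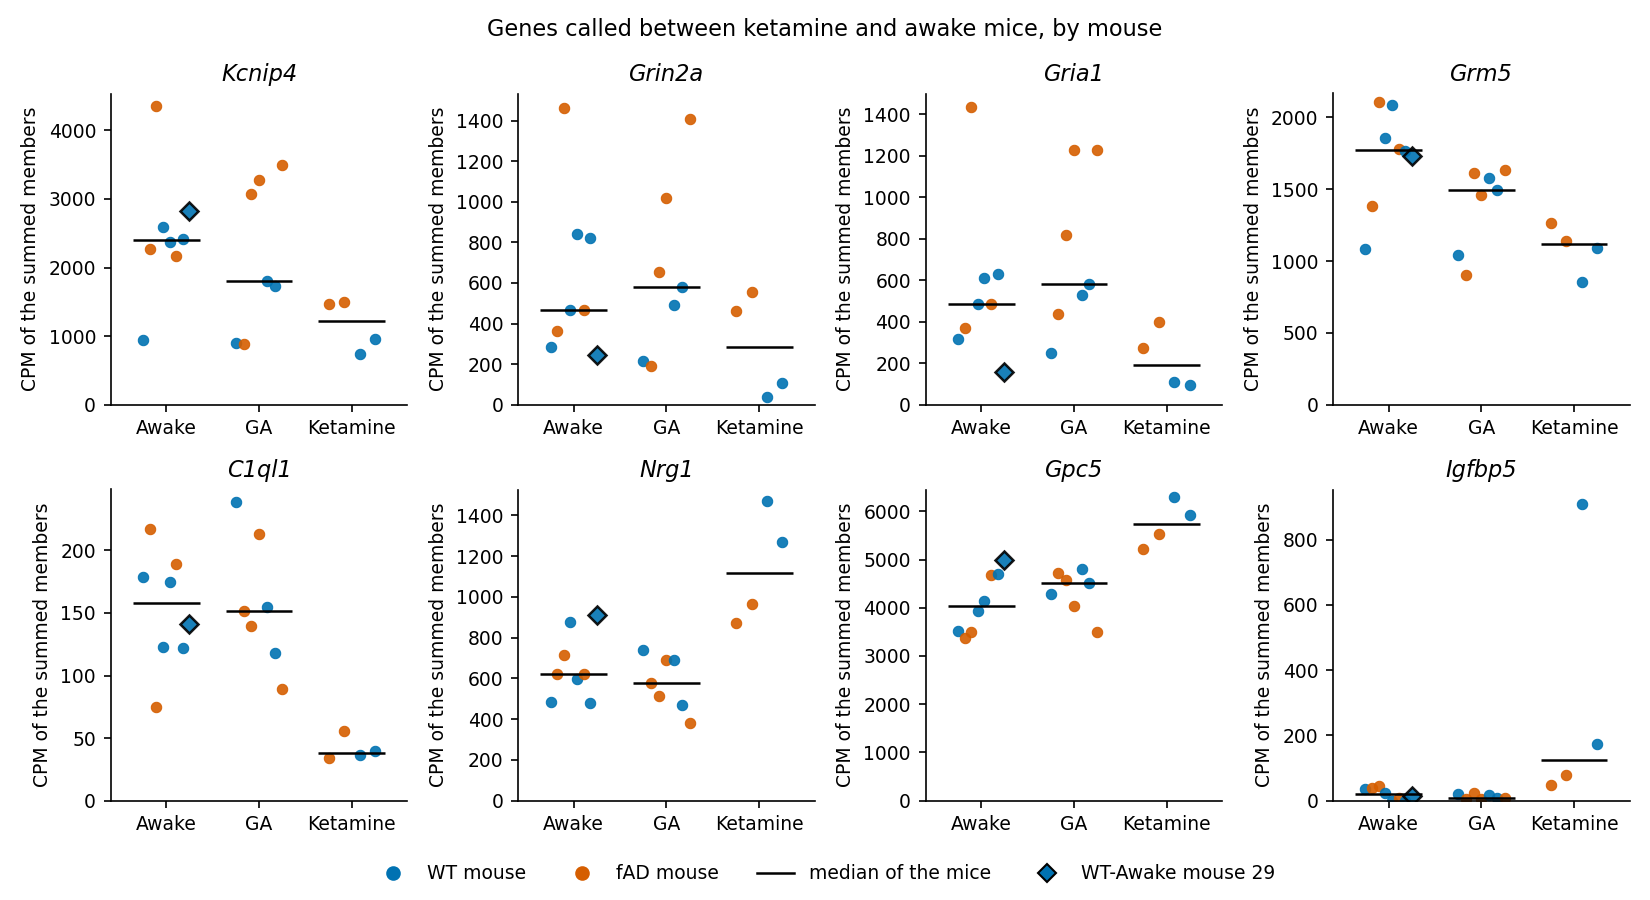
CPM of 8 genes called between ketamine and awake mice in summed precursor nuclei, by mouse and state (the line is the median of the mice, the diamond WT-Awake mouse 29). C1ql1 (34.0 to 55.5) lies below, and Gpc5 (5217 to 6305) and Igfbp5 (47.6 to 909) above, the awake range in all 4 ketamine mice, while Gria1 and Grin2a overlap it.

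Of the genes that rose under ketamine, Nrg1, the ErbB receptor ligand neuregulin, stood at 871, 965, 1472 and 1266 CPM against 478 to 912 awake (median 622), with mouse 29 at 912, and rose by 0.74 ± 0.195 (edgeR adjusted p = 0.0411). It was the 1 call of 15 growth factor genes, against 1.05% of all genes higher and 1.13% lower. The heparan sulfate proteoglycan Gpc5 stood at 5217, 5535, 6305 and 5919 CPM against 3381 to 4991 (median 4029), with mouse 29 at 4991. Gpc5 rose by 0.47 ± 0.118 (edgeR adjusted p = 0.0334). Gpc5 is also a marker of astrocytes, whose 12 markers summed to 6004 to 7505 CPM in ketamine and 4152 to 5698 in awake mice, with Aqp4 at 0 by the rule. Gpc5 itself made up 56.1 to 79.7% of that sum in the awake and ketamine mice, and the other 11 markers overlapped (1299 to 2091 CPM under ketamine, 1265 to 2314 awake). Without mixed nuclei the change of Gpc5 was 0.24 and that of Acsl3 0.64, neither called. Acsl3, a fatty acid-activating enzyme, stood at 190.4, 255, 199.9 and 173 CPM against 42.8 to 111, and rose by 1.15 ± 0.268 (edgeR adjusted p = 0.0238).

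Kazn stood at 319.7, 144, 218 and 187 CPM and rose by 1.31 ± 0.259 (edgeR adjusted p = 0.0123), and the sorting nexin Snx25 stood at 537, 410.4, 491 and 453 against 158 to 317 and rose by 1.01 ± 0.208. Tes and its antisense neighbour Gm4876, which overlap on chromosome 6, rose by 1.66 and 0.65, and the collagen gene Col23a1 by 3.05, from 6.75 to 20.4 CPM awake to 61.2, 88.7, 109 and 53.3. The insulin-like growth factor-binding protein Igfbp5 (chr1:72857932-72874884) stood at 47.6, 77.6, 909 and 173 CPM against 0 to 44.8 and rose by 3.35 ± 0.593 (edgeR adjusted p = 0.00461), with mouse 27 far above the rest. Vim was not called (log2 2.29, edgeR adjusted p = 0.0732), at 129, 588, 1526 and 559.9 CPM. Fibroblast markers, 8 genes, summed to 66.3 to 265 CPM in ketamine mice (median 168) and 0 to 289 in awake mice (median 36.6), where fAD-Awake mouse 10 had the 289. In the ketamine mice 3 to 5 of the 8 were detected in each mouse, and Col1a2 (by the rule), Lum and Slc6a13 were at 0 in all 4.

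Transcripts from a ribosomal RNA-related locus also rose. AY036118 stood at 4189.9, 1043, 1781 and 427 CPM against 171 to 388 awake and rose by 2.67 ± 0.329 (edgeR adjusted p = 5.26e-05), and Gm42418, which overlaps it on chromosome 17, at 16433, 4159.8, 11575 and 1666 against 553 to 2161, a rise of 2.88 ± 0.408. Cmss1 stood at 4666, 932, 691 and 453 CPM against 59.7 to 456. The spread among ketamine mice was large in each, and mouse 29 was the highest awake mouse for Gm42418 and Cmss1.

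Of the genes called under GA, Vegfa and Hif3a were not called under ketamine. Vegfa stood at 184, 111, 36.3 and 173 CPM and Hif3a at 0, 44.4, 54.5 and 53.3, with log2 changes from awake of 0.87 and 1.48. Sox2ot stood at 3299, 3239, 5179 and 3253 CPM (log2 0.23, not called), Adamts6 at 531, 255, 345 and 279.9 (0.91, called).

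The remaining lists gave no call under ketamine. These were 17 differentiation and myelin genes (median -0.23), 6 cell cycle, 9 ERK output and 3 immediate early genes (Jun, log2 1.42, edgeR adjusted p = 0.115), 16 genes of GABA and other transmitter receptors (Chrm3, -1.98, adjusted p = 0.0819), 13 Notch and Wnt genes (median -0.28), 9 circadian genes, 11 glucocorticoid targets, 16 genes of the heat shock list and 26 genes of cyclic nucleotide signalling. Mature oligodendrocyte markers summed to 312 to 388 CPM in the members of ketamine mice, within the 223 to 1298 of awake mice, and microglial markers to 46.8 to 192 against 90.4 to 185.

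The anesthetics were then compared directly. Of 5048 genes 31 were higher and 28 lower under ketamine than under GA (1.17%, with 0.614% and 0.555%), and 135 (2.67%, with 1.86% higher and 0.812% lower) of those tested had ranges that did not overlap. The count was 1 with a block for each run, 7 without WT-Ketamine mouse 27, 13 without fAD-Ketamine mouse 25, 16 without WT-GA mouse 18, 18 without fAD-GA mouse 15, 27 and 31 without ketamine mice 28 and 26, and 36 without WT-Awake mouse 14. Vegfa was higher under ketamine by 3.65 ± 0.477 (edgeR adjusted p = 0.000156) and Sox2ot by 0.93 ± 0.159 (adjusted p = 0.00231), the latter without overlap. Tafa1 was lower by 1.13 ± 0.217 on the log2 scale, from a GA median of 1456 CPM to 837, 666, 545 and 627.

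Of 26 glutamate receptor genes tested between the anesthetics 3 were lower under ketamine and none higher, against 0.555% of all genes lower and 0.614% higher. The list had 17 negative estimates and a median of -0.11. Among the genes lower under ketamine were Gria1 (log2 -2.07 ± 0.353, edgeR adjusted p = 0.00231), Grin2a (-1.87 ± 0.404) and the AMPA receptor auxiliary subunit Shisa6 (-1.44 ± 0.284). C1ql1 (-1.81 ± 0.377), Kcnip4 (-1.06), the ryanodine receptor Ryr2 (-1.45), the proton pump subunit Atp6v0c (-1.76), Tra2a (-1.12), Edil3 (-0.89), Snhg11 (-0.94), mt-Nd4 (-2.43), mt-Cytb (-2.84) and mt-Atp6 (-1.98) were lower too. Without mixed nuclei Gria1 (-1.05), Kcnip4 (-0.14) and Ryr2 (-0.88) were not called, Shisa6 (-1.26) and C1ql1 (-1.88) were, and Grin2a was not tested. Higher under ketamine were Igfbp5 (4.35), Vim (4.63), Sfrp2 (5.15), Prg4 (6.06), AY036118 (2.33), Gm42418 (2.92), Cmss1 (2.14), Snx25 (1.08) and Nrg1 (0.91). Sfrp2 was 170.0, 55.5, 90.9 and 627 CPM in ketamine mice, 552 in fAD-Awake mouse 10 and 0 to 46.7 under GA. The fibroblast sum was 3.98 to 33.4 CPM under GA and 66.3 to 265 under ketamine, and its part in these genes was not tested. With a block for each run Vim (-1.02), Sfrp2 (-2.35) and mt-Atp6 (0.09) changed sign.

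Of all genes tested 0.614% were higher and 0.555% lower under ketamine than under GA. Of 33 tested precursor genes outside the rule 2 were higher and 1, C1ql1, lower, with a median of 0.05. Of 17 differentiation and myelin genes 1 was higher and none lower, with a median of -0.11. Those higher were Sox10 (1.26 ± 0.309, edgeR adjusted p = 0.0435), Xylt1 (0.55 ± 0.135, adjusted p = 0.0435) and, in the second list, the early oligodendrocyte gene Bcas1 (0.76 ± 0.194, adjusted p = 0.0473). Sox10 stood at 313, 299.5, 309 and 333 CPM in the ketamine mice and at 330.1 in awake mouse 29 of the same run. Under GA it ran from 88.4 to 618 CPM with the 2 GA mice of numbers 3 and 4 the highest, so that the groups overlapped, and with a block for each run its difference was -0.12. Xylt1 stood at 2789, 2873, 3035 and 3026 CPM against 1711 to 2589.6 under GA, without overlap. Bcas1 stood at 646, 632, 491 and 467 CPM against 257 to 498. The 8 markers of committed and newly formed oligodendrocytes, of which Bcas1 is 1, summed to 1392 to 1529 CPM in members under ketamine, above the 803 to 1289 under GA, and to 918 to 1445 in awake mice, the highest being mouse 29. Their part in the result was not tested.

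The ketamine response differed between precursors and mature oligodendrocytes in 32 of 7374 genes (0.434%), 7 with the higher (0.0949%) and 25 with the lower response in precursors (0.339%). The count was 2 without fAD-Ketamine mouse 25, 15 without fAD-Awake mouse 2, 18 without WT-Awake mouse 14, 19 without WT-Awake mouse 1 or WT-Ketamine mouse 28, 54 without WT-Awake mouse 29 and 215 without fAD-Awake mouse 10. Kcnip4 (difference -1.77 ± 0.283, edgeR adjusted p = 0.00148), Ryr3 (-1.57), Cntnap2 (-1.65), the ephrin receptor Epha6 (-1.93), Gria1 (-1.76), Syt1 (-1.48), Celf2 (-1.31) and Grm5 (-1.16) had the lower response in precursors. Nuclei of mixed profile were not left out of this comparison. In the mature class Kcnip4 ran from 1488 to 7892 CPM awake and from 3955 to 5082 under ketamine. The higher response was in Kazn (1.73 ± 0.284), Acsl3 (1.62 ± 0.322), Mpzl1 (1.77), Bcas1os2 (1.35), Csnk2a2 (1.68), Pla2g7 (2.55) and Rassf2 (1.78).

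Against astrocytes, with only the 2 ketamine mice labelled fAD holding enough astrocyte nuclei, 8 of 5750 genes (0.139%) differed. Adamts9 (2.28) and Vps50 (7.04) had the higher response in precursors (0.0348% of genes), and the lower response (0.104%) was in Pde10a (-3.80), Eftud2 (-3.25), Ptprj (-2.20), Rps6ka3 (-2.34), Dclk1 (-1.66) and Rgs17 (-3.24). The count was 1 without fAD-Ketamine mouse 25, 3 without fAD-Awake mouse 2, and 5 without fAD-Ketamine mouse 26, WT-Awake mouse 14 or WT-GA mouse 3. Without mouse 25 or 26 a single ketamine mouse is left, assumed to vary like the mice of the other states, and ketamine mice labelled WT have no part in this comparison.

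Genotype was compared over the 3 states, 9 mice labelled fAD against 10 labelled WT. In edgeR 0 of 5048 genes were called (0%), with 299 at an unadjusted p under 0.05, and DESeq2 called 4. The count was 6 without fAD-Awake mouse 17, 4 without WT-Awake mouse 29, and 1 without WT-Awake mouse 14 or fAD-GA mouse 4. The 5 genes of smallest unadjusted p with a positive difference were Kcnip4 (log2 0.71 ± 0.141), Prnp (2.15 ± 0.454), Grin2a (1.36 ± 0.29), Gria1 (1.15 ± 0.257) and Parg (0.91 ± 0.217), with edgeR adjusted p of 0.119, 0.119, 0.119, 0.161 and 0.279. Kcnip4 ran from 745 to 2821 CPM in WT (median 1771) and from 891 to 4358 in fAD (median 2271). Grin2a ran from 36.3 to 840 (median 376) and from 190.4 to 1462 (median 555). The ranges of the labels did not overlap for 1 gene of those tested (0.0198%, higher in fAD), Parg, which ran from 40.0 to 72.7 CPM in WT (median 70.9) and from 81.3 to 149.6 in fAD (median 94.4).

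Without mice 11, 14, 17 and 20, chosen for their Prnp level, 4 of 5660 genes were called, Kcnip4 (0.76), Prnp (2.66), Grin2a (1.46) and Gria1 (1.30). The value of Prnp there is no test, since Prnp chose the mice. The 12 excitatory neuron markers, of which Kcnip4 is 1, summed to 3074 to 9759 CPM in members of WT (median 7046) and to 4913 to 14160 in fAD (median 9083), and without mixed nuclei the differences over all mice were 0.44 for Kcnip4 and 0.59 for Gria1, neither called, while Grin2a was not tested. Prnp was called there (2.20, edgeR adjusted p = 0.0396). The 5 genes of smallest unadjusted p with a negative difference were Sycp3 (-0.995), Antxr1 (-0.78), Smyd3 (-0.51), Gng12 (-0.55) and Gm15563 (-0.81), with edgeR adjusted p of 0.359 to 0.615. App differed by 0.26 ± 0.161 (adjusted p = 0.907).

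The study asked whether anesthesia acts differently in fAD mice, which the interaction of genotype and GA addresses in precursors. In edgeR 0 of 5048 genes were called (0%), 177 had an unadjusted p under 0.05, DESeq2 called 0 and the fit with no filter on low counts called 4. These fits hold the 4 mice whose Prnp level went against the genotype label, which limits what they can show about genotype. The genes of smallest unadjusted p were Ncoa5 (1.67), 1700037C18Rik (2.31), Trappc10 (2.16), Gm48678 (1.46) and Cpne4 (2.70) on the positive side, and Baiap2 (-2.32), mt-Co1 (-1.89), Atl1 (-1.34), Bzw2 (-1.44) and Pex14 (-1.34) on the negative, each with an adjusted p of 1. Within mice labelled WT alone the GA comparison called 6 genes and within mice labelled fAD alone 0, which is not a test of their difference.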

How the data were processed

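Single-nucleus RNA-seq was measured in the hippocampus of 20 mice, 1 library each. The authors made the deposited files with Cell Ranger 5.0.0 on mm10, with intronic reads included, and they hold raw UMI counts per gene and nucleus. Whether the background removal named in the methods was applied to them is not given in the sources used here. Library totals ran from 9243992 to 25394891 UMIs and members' sums from 13454 to 269266 UMIs a mouse. Low sums limit what can be detected in a mouse.

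Counts of member nuclei were summed per mouse and tested with edgeR 4.0.16 (quasi-likelihood, TMM, genes filtered by group, Benjamini-Hochberg, threshold 0.05). The model held the 6 groups and a term for mice 1 to 4, which stand apart in mitochondrial reads, and mice under 20 members were left out. Contrasts were averaged over genotype or state. Responses were compared between classes with mouse as a block. Mature oligodendrocytes had at least 3 UMIs of Mog, Mag and Aspa, astrocytes at least 3 of Aqp4, both under limits like those of the members. Shares were compared by exact permutation, two-sided. DESeq2 1.42.0 was an alternative, among those described under the dependence on the processing. No doublet caller was run, and mixed nuclei were left out as an alternative. Mice were taken as replicates from the labels.

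Named are, per comparison, the 10 called genes of smallest adjusted p in each direction (where fewer than 5 were called, the smallest unadjusted p up to 5), the called members of each list up to 6 or otherwise the member of smallest unadjusted p, the genes of the rule, Prnp and App, and the 20 genes of highest ratio. Some results under this rule are not reported here. The members and lists were chosen with earlier results of these data known.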

Additional observations from a re-analysis of the deposited data

Results flagged for a closer look

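The WT-Awake and fAD-GA groups were searched for a mouse standing far from the rest of its group, and the other groups were not. Of 154 sets of values, from the precursor share and 76 genes named in the text, 20 held such a mouse. About 1 in 20 is found by chance. In WT-Awake mouse 29 these were Gm26512 (125.7 CPM, against 30.5 to 55.5 in the other WT-Awake mice), Hdac9 (644.4, against 263 to 336), Sfrp2 (31.4, against 0) and Vim (369.4, against 0 to 31.7). In WT-Awake mouse 1 they were Kcnip1 (449.9 CPM, against 324 to 357), Kcnip4 (945.8, against 2378 to 2821), mt-Atp6 (1856, against 70.7 to 477), mt-Co1 (1846, against 126 to 594), mt-Cytb (1544, against 40.7 to 331) and mt-Nd4 (1155, against 62.9 to 226).

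In fAD-GA mouse 4 they were Celf2 (830.8 CPM, against 2283 to 2519.6 in the other fAD-GA mice), Gm4876 (1237, against 1049.8 to 1066), Kcnip4 (891.3, against 3079.5 to 3489), mt-Atp6 (1929.8, against 155 to 209.97), mt-Co1 (2267, against 65.1 to 257), mt-Cytb (1294, against 40.7 to 98.8) and mt-Nd4 (977.9, against 24.4 to 163). In fAD-GA mouse 11 they were Sfrp2 (46.7 CPM, against 0 to 4.33), Sox2ot (2263, against 1724 to 1747) and Vim (303.3, against 8.65 to 16.3). Mice 1 and 4 belong to the run whose libraries held the most mitochondrial transcripts, which carries a term of its own in the fits.

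Responses that differed between cell classes by the test of the difference itself numbered 34 genes for GA in precursors against mature oligodendrocytes, 32 for ketamine against mature oligodendrocytes and 8 for ketamine against astrocytes, the last resting on 2 ketamine mice.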

How the results depend on the processing

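The groups could not be paired by label because they share no replicate numbers, each mouse having a number of its own. Classes were compared within the mouse. A block for runs of consecutive mouse numbers, which the labels do not call batches, was fitted as an alternative, and for GA minus Awake it gave 30 calls, 25 of them among the 40. Over all alternatives there were 5374 estimates for single genes named, of which 4120 kept direction and side of the threshold, 1194 lost the call, 46 gained one and 14 changed sign. For GA minus Awake (40 calls), 9 genes were called with equal nuclei per mouse, 19 with a marker sum of at least 5, 69 in members that also have the precursor profile, 87 without a filter on low counts, 15 without the term for mice 1 to 4, 115 in all nuclei of precursor profile, 0 in mice labelled fAD alone and 6 in those labelled WT, 16 without mice 1 to 4 and 77 without mixed nuclei. For Ketamine minus Awake (110) these settings gave 5, 4, 77, 178, 36, 176, 9, 8, 38 and 61, with 25 from only the groups compared and 5 with runs of mouse numbers as a block. For Ketamine minus GA (59) there were 6 with equal nuclei, 12 with the higher sum, 38 in members with the profile, 157 unfiltered, 15 without the term, 152 from only the groups compared, 1 with the run block and 32 without mixed nuclei. For fAD minus WT (0) there were 4 with DESeq2, 13 unfiltered, 4 with the run block, 4 without mice 11, 14, 17 and 20, and 1 without mixed nuclei, and for the interaction (0) 4 unfiltered. Restricting fAD minus WT to the groups compared uses every mouse and gives the same fit. Leaving out 1 mouse gave 11 to 61 calls for GA minus Awake, 7 to 160 for Ketamine minus Awake, 7 to 83 for Ketamine minus GA, 0 to 6 for fAD minus WT and 0 for the interaction. Class differences from mature oligodendrocytes numbered 14 to 53 (GA) and 2 to 215 (ketamine) without 1 mouse, and from astrocytes 0 to 3 and 1 to 11. Without mice 1 to 4 they numbered 20 (GA) and 10 (ketamine) for mature oligodendrocytes and 3 for ketamine in astrocytes, unfiltered 121 for ketamine in mature oligodendrocytes and 6 and 17 in astrocytes, and with DESeq2 61 for ketamine in mature oligodendrocytes and 1 for GA in astrocytes. Differences in share changed sign. GA minus Awake was -0.117 percentage points by precursor profile and -0.0137 without mice 10, 11 and 12 (-0.0278 to 0.225 without 1 mouse). Ketamine minus Awake was 0.215 over nuclei of at least 1000 UMIs, each thinned to 1000, 0.147 by profile, 1.37 as a share of precursors, mature oligodendrocytes and astrocytes, and 0.140 without mice 1 to 4 (-0.141 to 0.0674). Ketamine minus GA was 0.199 thinned and 0.264 by profile (-0.246 to -0.0187), and fAD minus WT was -0.0525 thinned, -0.107 by profile, -0.138 as a share of these 3 classes and -0.117 without mice 1 to 4 (-0.0512 to 0.141). Single genes that changed sign were, for Ketamine minus Awake, Sox2ot (-0.0851 with a marker sum of at least 5, -0.0341 with the run block), mt-Atp6 (0.165, run block) and Hif3a (-0.706 to 2.11 without 1 mouse). For Ketamine minus GA they were, with the run block, Sfrp2 (-2.35), Sox10 (-0.117), Vim (-1.02) and mt-Atp6 (0.0864). Adamts6 between classes under GA was -0.00754 with DESeq2 (-0.0709 to 0.219 without 1 mouse), and Sycp3 in fAD minus WT was 0.182 in GA mice alone. The causes were not tested, beyond the fewer nuclei, mice or genes that a setting leaves.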
